A study of Mus musculus with 6 samples.

Results

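Pan-endothelial marker genes are taken here as genes read in most endothelial cells, whatever vessel or chamber those cells line. Their levels can still differ between vessels, as for Emcn, which is richest in veins and capillaries. A list of 10 such genes, chosen by symbol, was followed in the RNA of mouse aortic valves: Pecam1, Cdh5, Kdr, Flt1, Tek, Tie1, Vwf, Emcn, Eng and Ptprb. All 10 were found among the 23107 genes of the deposited table, and all 10 were among the 15354 genes that held enough fragments to be tested. The libraries came from whole aortic valves of mice aged 4 months with the strain label Outbred, 3 from controls and 3 from mutants. The mutants carried caAcvr1, a transgene for a constitutively active form of the BMP type I receptor Acvr1 that Cre switches on, together with Nfatc1Cre, a Cre cassette knocked into the Nfatc1 locus, which is active in endocardial cells. The study also reports its activity in cushion mesenchyme, in valve interstitial cells and in cells where leaflet and wall join. It proposes that some of these cells do not come from the endocardium. The controls are labelled wild type, whereas the study's methods count as controls mice with either allele alone or with neither, and which of these were sequenced was not stated. Neither the number of mice per library nor the sex of the mice was given in the sources used here, so that p-values measure only the spread between these libraries.

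Endothelial cells form the inner lining of blood vessels, and a related layer covers both faces of every valve leaflet. The 10 genes encode parts of the machinery that defines this layer: proteins that hold neighbouring cells together, the receptors for vascular endothelial growth factor (VEGF) and for the angiopoietins, a co-receptor for bone morphogenetic proteins (BMPs), a stored clotting protein and a surface mucin. In bulk RNA, fewer endothelial cells and less RNA of these genes per cell cannot be told apart.

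In none of the 10 genes was a difference between the genotypes found that exceeded the spread between libraries. The quasi-likelihood test of edgeR called 0 of the 10 at an adjusted p under 0.05, against 0% of the 15354 genes tested. At an unadjusted p under 0.05 it called 0 of the 10 members and 3.45% of all genes, and DESeq2 called 0 of the 10 members and 0.169% of all genes. The fitted change was above 0 in 5 members and below 0 in the other 5, from -0.47 for Emcn to 0.20 for Eng on the log2 scale, with a median of -0.02 beside 0.01 for all genes tested. In 0 of the 10 members did the 3 mutants lie apart from the 3 controls, while 8.87% of all genes had groups that did not overlap. The genes were deeply counted, with 2514 to 51957 fragments per library, and standard errors ran from 0.15 to 0.31. For 9 of the 10 genes the 95% interval of the change excluded a 2-fold difference in either direction, the exception being Emcn, and for 6 of the 10 it excluded a 1.5-fold difference.

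**Figure D1:**
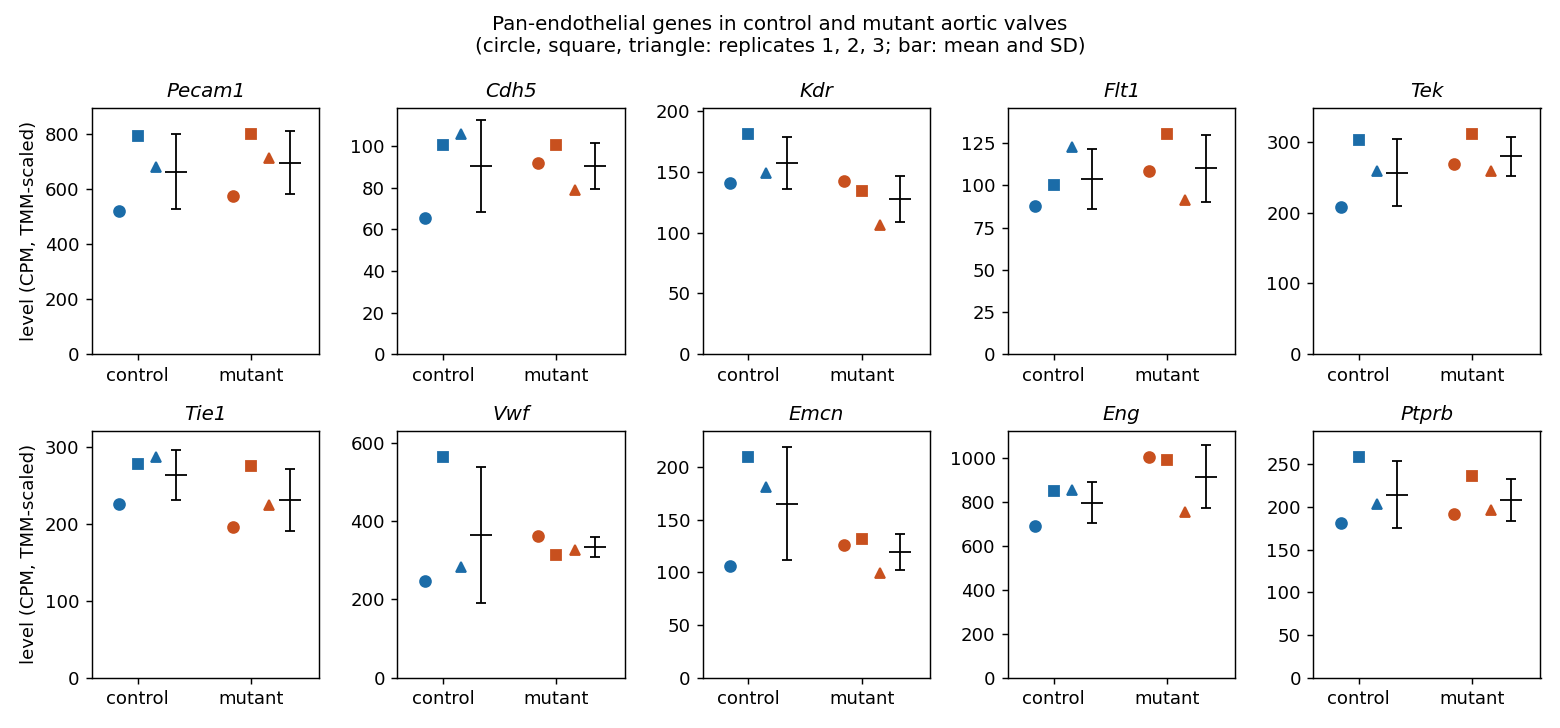
Level of each of the 10 pan-endothelial genes (vertical axis, CPM, fragment counts scaled to the library total with the TMM method, from 0) in the 3 control (blue) and 3 mutant (orange) libraries, with the mean and SD of each group in black. The groups overlap in all 10 panels, and control replicate 1 (blue circle) is the lowest control in each of them.

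By the GENCODE M21 annotation of the GRCm38 (mm10) assembly, Pecam1 lies on chromosome 11 (106654217-106750628, minus strand) and Cdh5 on chromosome 8 (104101625-104144511, plus strand). Kdr (75932827-75978458) and Flt1 (147561604-147726011) share the minus strand of chromosome 5. Tek (94739289-94874976, plus strand) and Tie1 (118471191-118490061, minus strand) are both on chromosome 4. Vwf is on chromosome 6 (125546774-125686679, plus strand), Emcn on chromosome 3 (137341067-137432185, plus strand), Eng on chromosome 2 (32646595-32682669, plus strand) and Ptprb on chromosome 10 (116275523-116389535, plus strand). The last 61 bases of Eng overlap Fpgs on the opposite strand, and since the strand of the fragments was not stated, fragments of that stretch cannot be told apart. Fpgs itself had 20.7 to 24.3 CPM, against 689 CPM or more for Eng. Eng also overlaps Mir1954, which was at 0 in all 6 libraries, and the unlisted gene models Gm26236 and Gm47291. Gene models that the table does not list also overlap Ptprb (Gm26495 and Gm47625) and Cdh5 (Gm29682, on the opposite strand).

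RefSeq windows around the transcription start, 250 bases before to 50 bases after it in GRCm38.p6, were given for 6 of the 10 genes: Eng, Emcn, Tek, Tie1, Kdr and Flt1. The core motif of the ETS family of transcription factors, searched as AGGAAG and its reverse complement CTTCCT, occurred in 4 of these 6 windows (Eng, Emcn, Tie1 and Flt1) and in 35.1% of all 32544 windows. A GATA motif (AGATAA or TTATCT) occurred in 1 of the 6, that of Tek, and in 11.2% of all windows. A forkhead motif (TAAACA or TGTTTA) occurred in 0 of the 6 and in 13.4% of all windows. The share of G and C ran from 41.0% in the Emcn window to 70.7% in that of Flt1, with a median of 53.0% over all windows. The 200 bases just before the annotated gene start are shown for Eng and Tek, which had the highest differences between mutants and controls when each gene was set against the other members, and for Kdr and Emcn, which had the lowest. Capitals mark AGGAAG or CTTCCT. These matches describe the letters only.

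Eng, chr2:32646395-32646594, plus strand: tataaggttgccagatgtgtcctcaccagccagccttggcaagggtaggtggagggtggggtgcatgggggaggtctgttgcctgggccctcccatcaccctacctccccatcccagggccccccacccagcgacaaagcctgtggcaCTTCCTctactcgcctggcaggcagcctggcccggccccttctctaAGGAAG
Tek, chr4:94739089-94739288, plus strand: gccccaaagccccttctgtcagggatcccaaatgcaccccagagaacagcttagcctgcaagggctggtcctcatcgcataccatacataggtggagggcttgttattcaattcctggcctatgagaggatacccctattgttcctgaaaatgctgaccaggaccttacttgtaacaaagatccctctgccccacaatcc
Kdr, chr5:75978459-75978658, minus strand: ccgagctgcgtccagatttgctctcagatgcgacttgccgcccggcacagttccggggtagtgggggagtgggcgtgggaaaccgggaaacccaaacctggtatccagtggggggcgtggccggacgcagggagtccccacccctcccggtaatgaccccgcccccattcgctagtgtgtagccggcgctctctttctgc
Emcn, chr3:137340867-137341066, plus strand: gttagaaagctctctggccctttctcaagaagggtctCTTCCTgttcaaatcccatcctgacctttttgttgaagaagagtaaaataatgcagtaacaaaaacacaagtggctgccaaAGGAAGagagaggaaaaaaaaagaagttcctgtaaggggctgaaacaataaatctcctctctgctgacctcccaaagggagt

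The 10 genes differed widely in level. Dividing the CPM by the summed length of each gene's annotated exons gave CPM per kilobase, a scale on which genes can be ranked. Eng was highest, at 212 ± 31.1 CPM per kilobase (SD, n = 6), above 98.5% of the 15163 genes with a known length. Pecam1 followed at 109 ± 18.4, and each of these 2 genes exceeded the next in 6 of 6 libraries. Tek (56.9 ± 7.85) and Tie1 (50.4 ± 7.56) came next and did not differ beyond their spread, with Tek above Tie1 in 4 of 6 libraries. Emcn (26.3 ± 8.08), Vwf (21.7 ± 6.99) and Cdh5 (21.5 ± 3.70) formed a group whose order changed between libraries, Emcn exceeding Vwf in 5 and Vwf exceeding Cdh5 in 3 of the 6. Ptprb (15.8 ± 2.21) and Kdr (15.8 ± 2.69) were level with each other. Flt1 was lowest, at 7.91 ± 1.27 CPM per kilobase, below Kdr in 6 of 6 libraries and above 62.6% of genes. The annotated exons of Flt1 sum to 13504 bases and its longest transcript to 6895, and on the length of the longest transcript its level was 15.5. On that length Tie1 (58.5) also passed Tek (57.6), and Kdr (24.1) passed Cdh5 (22.7) and Ptprb (17.7). Emcn (40.4) and Vwf (39.5) then stood well above Cdh5, so that the grouping of these 3 genes depended on the length used.

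Library totals ran from 32218345 to 55728852 fragments, so that 3 fragments, the most a count of 0 allows for, came to 0.0538 to 0.0931 CPM, far below any member. The 10 genes together made up 0.237% to 0.379% of all fragments. The libraries also held tissue from around the leaflets. The 10 cardiac muscle markers summed to 10715 to 33713 CPM in the controls and 14618 to 34373 CPM in the mutants, and the 9 interstitial and fibroblast markers to 15400 to 16367 and 13586 to 17836 CPM. Control replicate 2 stood apart, with the lowest cardiac muscle sum and the highest sums of smooth muscle (13477 CPM) and mesothelial markers (1149 CPM) of the 6 libraries. The 9 macrophage markers summed to 1431 to 1616 CPM in the controls and 1900 to 2054 CPM in the mutants, with all 9 fitted changes above 0 and every mutant above every control for 6 of the 9, as for 4.04% of all genes. The 7 smooth muscle markers summed to 5943 to 13477 and 2275 to 6046 CPM, with all 7 fitted changes below 0 and every mutant below every control for 3 of the 7, as for 4.83% of all genes. None of these markers was called by edgeR at an adjusted p under 0.05, whereas DESeq2 called the macrophage marker Lyz2 (log2 fold change 0.46, adjusted p = 0.00506 in DESeq2 and 0.999 in edgeR). In no marker list was a gene at 0 in all 6 libraries.

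Pecam1 and Cdh5 encode the adhesion proteins PECAM-1 and VE-cadherin, which join endothelial cells at their borders. Pecam1 is also made by platelets and leukocytes. The controls held 518 (replicate 1), 793 (replicate 2) and 680 CPM (replicate 3) of it and the mutants 574, 800 and 714 CPM, and values are given in this order of replicates throughout. Replicate 1 was the lowest and replicate 2 the highest of each genotype, and the groups overlapped almost wholly. The log2 fold change, mutants against controls, was 0.07 (SE 0.21, adjusted p = 0.999 in edgeR), with a 95% interval from -0.44 to 0.58. Without control replicate 1 it was -0.08. Cdh5 was at 65.3, 100 and 106 CPM in the controls and at 92.1, 101 and 78.9 CPM in the mutants, all 3 of which lay between the lowest and the highest control. Its log2 fold change of 0.0021 (SE 0.20) was the nearest to 0 of the 10, with an interval from -0.46 to 0.47, and it was -0.19 without control replicate 1.

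The partners of VE-cadherin at the junction were less even. Ctnnb1, the beta-catenin that binds its tail, was at 561, 678 and 608 CPM in the controls and lower in every mutant, at 490, 532 and 459 CPM (log2 fold change -0.32, SE 0.14). Cldn5, the main claudin of endothelial tight junctions, was at 96.2, 120 and 101 CPM in the controls and at 52.1, 73.5 and 71.2 CPM in the mutants. The highest mutant lay well below the lowest control, and the log2 fold change was -0.69 (SE 0.16, unadjusted p = 0.00366 and adjusted p = 0.999 in edgeR, adjusted p = 0.113 in DESeq2). Ctnnd1, which encodes the p120 catenin, overlapped between the genotypes (-0.22, SE 0.18), and so did Esam, an endothelial adhesion molecule (0.0042, SE 0.21). Of the 12 junction partners, 0 were called by edgeR. At an unadjusted p under 0.05, Ocln, which encodes occludin, was higher and Cldn5 lower in mutants, beside 3.45% of all genes. The groups lay apart with every mutant lower for 3 of the 12 (4.83% of all genes) and with every mutant higher for 2 (4.04%), Jam2 and Ocln, and the median log2 fold change of the list was -0.08.

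Kdr and Flt1 encode the VEGF receptors, of which Kdr carries most of the growth signal and Flt1 binds VEGF-A and placental growth factor and can act as a trap for them. Kdr was at 141, 181 and 149 CPM in the controls and at 142, 135 and 106 CPM in the mutants. Mutant replicates 2 and 3 lay below every control, and mutant replicate 1 lay between control replicates 1 and 3. With a log2 fold change of -0.30 (SE 0.15, interval -0.66 to 0.06), Kdr had the smallest unadjusted p of the members, 0.0896 in edgeR (adjusted p = 0.999). Its fold change stayed below 0 whichever library was left out, being nearest to it, at -0.18, without control replicate 2. Flt1 was at 87.6, 100 and 123 CPM in the controls and at 108, 130 and 91.3 CPM in the mutants, with a log2 fold change of 0.09 (SE 0.17). Its groups overlapped widely, and its sign turned without control replicate 1 or without mutant replicate 2.

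Per kilobase, the ratio of Flt1 to Kdr was 0.415, 0.370 and 0.549 in the controls and 0.509, 0.648 and 0.575 in the mutants. Control replicate 3 lay above mutant replicate 1, so that the groups overlapped, with a difference of 0.39 on the log2 scale (0.27 to 0.55 when each library was left out in turn). Among the ligands, Vegfa (0.17, SE 0.24), Vegfb (0.13, SE 0.30) and Pgf (0.28, SE 0.16, 0.15 without mutant replicate 2) overlapped between the genotypes. Vegfa and Vegfb were both lowest in control replicate 2, at 85.7 and 95.8 CPM, and without it their log2 fold changes were -0.06 and -0.15. That library also had the lowest cardiac muscle sum, whose part in these values was not tested. The co-receptor gene Nrp1 had a log2 fold change of -0.27 (SE 0.21), which was -0.43 without control replicate 1 and -0.06 without control replicate 2. Flt4, the VEGF receptor best known from lymphatic vessels, was at 129, 195 and 145 CPM in the controls and at 99.2, 130 and 74.7 CPM in the mutants, mutant replicate 2 lying just above control replicate 1 (-0.63, SE 0.24, unadjusted p = 0.0334 and adjusted p = 0.999 in edgeR). Of the 9 ligands and co-receptors tested, 0 were called. At an unadjusted p under 0.05 in edgeR, 2 were lower (Flt4, and Nrp2 at -0.60, SE 0.24), beside 3.45% of all genes in either direction. In this list 3 fitted changes were above 0 and 6 below, and the median was -0.11.

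Tek encodes Tie2, the angiopoietin receptor, Tie1 a related receptor that modulates it, and Ptprb the phosphatase VE-PTP, which removes phosphate from Tie2 and binds VE-cadherin. Tek was at 208, 303 and 258 CPM in the controls and at 269, 311 and 259 CPM in the mutants. Only control replicate 1 lay clearly below the mutants, and the log2 fold change of 0.13 (SE 0.17) was -0.0046 without it. Tie1 was at 226, 278 and 287 CPM in the controls and at 196, 276 and 225 CPM in the mutants (-0.18, SE 0.17), and its fold change was lowest (-0.33) when mutant replicate 2 was dropped and highest (-0.08) when mutant replicate 1 was. Ptprb was at 181, 258 and 204 CPM in the controls and at 192, 236 and 197 CPM in the mutants, with a log2 fold change of -0.04 (SE 0.16, interval -0.43 to 0.35), and it was 0.12 without control replicate 2. Its mutants lay wholly inside the range of the controls.

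Set against each other, the fitted changes of the 2 Tie receptors had opposite signs. The ratio of Tie1 to Tek per kilobase was 1.04, 0.879 and 1.06 in the controls and 0.698, 0.849 and 0.830 in the mutants, none of which reached the lowest control. The gap between the nearest libraries, control replicate 2 and mutant replicate 2, was small beside a difference in group means of -0.33 on the log2 scale, which ran from -0.42 to -0.24 when each library was left out. Of the 15353 other genes tested, 8.77% also had a ratio to Tek that was lower in every mutant, so that the separation was shared with many genes. With 3 libraries against 3, an exact two-sided permutation test cannot give a p below 0.1, which is what groups that do not overlap reach.

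The angiopoietins, the ligands of Tie2, were counted at far lower levels. Angpt1, the activating ligand, was at 45.7, 31.4 and 69.7 CPM in the controls and at 56.5, 38.3 and 80.9 CPM in the mutants (0.26, SE 0.35), and replicate 3 was the highest and replicate 2 the lowest in each genotype. Angpt2, the context-dependent antagonist that endothelial cells release, was at 23.8, 46.8 and 27.2 CPM in the controls and at 16.7, 25.1 and 18.9 CPM in the mutants (-0.69, SE 0.28, unadjusted p = 0.0457 and adjusted p = 0.999 in edgeR). Its groups overlapped through mutant replicate 2, and without control replicate 2 its log2 fold change was -0.33. Angpt4 was lower in every mutant, at 7.45, 5.92 and 7.00 CPM against 9.44, 12 and 12.4 CPM (-0.73, SE 0.18, unadjusted p = 0.0052 and adjusted p = 0.999 in edgeR). In the angiopoietin list of 4 genes, 0 were called. At an unadjusted p under 0.05 in edgeR, 2 were lower, beside 3.45% of all genes. Groups lay apart for Angpt4 alone, beside 4.83% of all genes with every mutant lower. Fitted changes were above 0 in 2 of the 4 and below 0 in 2, with a median of -0.22. The ratio of Angpt2 to Angpt1 per kilobase varied more between controls, from 0.550 to 2.1, than between the genotypes, and the groups overlapped.

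Eng encodes endoglin, a co-receptor through which endothelial cells sense the BMP ligands made from Gdf2 and Bmp10, and it is also found on macrophages. It was at 689, 852 and 853 CPM in the controls and at 1003, 993 and 752 CPM in the mutants. Mutant replicates 1 and 2 exceeded every control, whereas mutant replicate 3 lay between control replicates 1 and 2. The log2 fold change was 0.20 (SE 0.19, interval -0.25 to 0.65), the highest of the 10, and it stayed above 0 whichever library was left out, from 0.10 (control replicate 1) to 0.32 (mutant replicate 3). The macrophage marker sums given above were also higher in every mutant, and their part in this value was not tested.

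Of the partners of endoglin, Acvrl1, its main type I receptor, had overlapping groups (-0.19, SE 0.20, -0.02 without control replicate 2). Gdf2 was sparse, at 1.90, 8.48 and 2.41 CPM in the controls and 3.73, 6.10 and 5.96 CPM in the mutants. The fitted log2 value of 0.30 (SE 0.58) became 1.29 without control replicate 2. Bmp10 was at 0 in 5 libraries and at 2 fragments in mutant replicate 3, and it was not tested. Smad1, a transcription factor that BMP receptors phosphorylate, was at 96.9, 117 and 104 CPM in the controls and at 72.1, 88.6 and 76.4 CPM in the mutants. Every mutant lay below every control (-0.43, SE 0.12, unadjusted p = 0.00961 and adjusted p = 0.999 in edgeR). Of the 9 partners tested, 0 were called. Smad1 alone had an unadjusted p under 0.05 in edgeR, beside 3.45% of all genes. It was also the only partner with groups apart, beside 4.83% of all genes with every mutant lower. Id1 (0.10, SE 0.21) and Id3 (0.01, SE 0.16), of the same list, overlapped between the genotypes. In this list 5 fitted changes were above 0 and 4 below, and the median was 0.01.

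Relative to their level, Vwf and Emcn were the members with the widest spread between controls. Vwf encodes von Willebrand factor, the clotting protein that endothelial cells store in Weibel-Palade bodies and that platelets also carry. It was at 246, 564 and 283 CPM in the controls and at 363, 314 and 326 CPM in the mutants. Control replicate 2 was far above the other 5 libraries, and the SD of the controls (174 CPM) was well above that of the mutants (25.4 CPM). The log2 fold change of -0.12 (SE 0.31) became 0.34 without control replicate 2, the library with the high smooth muscle and mesothelial sums, whose part in this value was not tested. The 6 platelet markers summed to 74.6 to 86.9 CPM in the controls and 82.6 to 150 CPM in the mutants. Most of the sum was Pf4, at 60.9, 59.4 and 61.6 CPM in the controls and 71.3, 84.0 and 100 CPM in the mutants. The average log2 CPM of the 6 markers was 2.42, 1.74 and 2.44 in the controls and 1.39, 3.72 and 3.21 in the mutants. By that average mutant replicate 1 was the lowest library. The part of platelets in the Vwf values was not tested. Selp, which encodes the P-selectin stored with von Willebrand factor, overlapped between the genotypes (-0.14, SE 0.28). Of the 8 Weibel-Palade body and von Willebrand factor partners tested, 0 were called and 0 had an unadjusted p under 0.05. Adamts13, the protease that cleaves von Willebrand factor, had 3 fragments in 1 library and was not tested.

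Emcn encodes endomucin, a sialomucin of the endothelial surface that is richest in veins and capillaries. It was at 106, 209 and 181 CPM in the controls and at 126, 132 and 99.6 CPM in the mutants. Control replicates 2 and 3 exceeded every mutant, and control replicate 1 lay among the mutants. The log2 fold change of -0.47 was the lowest of the 10 (SE 0.25, interval -1.07 to 0.13, unadjusted p = 0.104 and adjusted p = 0.999 in edgeR). It stayed below 0 whichever library was left out, being lowest (-0.71) when control replicate 1 was dropped and highest (-0.26) when control replicate 2 was.

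**Figure D2:**
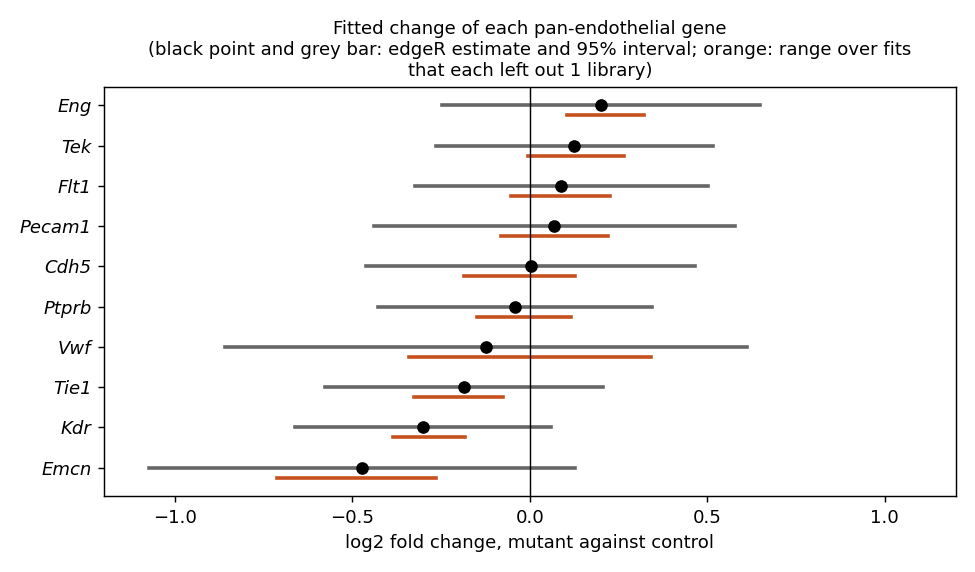
Fitted log2 fold change of each gene, mutants against controls (horizontal axis), as a black point with its 95% interval from edgeR in grey, and the range over 6 refits that each left out 1 library in orange. All 10 intervals include 0; Emcn (-0.47) and Eng (0.20) mark the ends, and the orange range keeps its sign for Eng, Tie1, Kdr and Emcn.

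The difference between libraries of 1 genotype was larger than that between the genotypes. Averaged over the 10 genes, the log2 CPM was 7.58, 8.14 and 7.95 for the controls, against 7.83, 8.0 and 7.70 for the mutants. The group means were 7.89 ± 0.29 and 7.84 ± 0.15 (SD, n = 3 each), a difference of -0.05, and every mutant lay between the lowest and the highest control. Control replicate 1 was the lowest control for 10 of the 10 genes, whereas it was the lowest for 33.0% of all genes tested. Control replicate 2 was the highest control for 6 members and control replicate 3 for the other 4. Among the mutants, replicate 2 was highest for 7 members and replicate 3 lowest for 6. These genes are read in the same cells and libraries and do not count as separate replicates. The cardiac muscle markers ran nearly the other way, with an average log2 CPM of 10.76, 9.07 and 10.75 in the controls and 10.95, 9.91 and 10.44 in the mutants. Control replicate 2 and mutant replicate 2, the highest by their endothelial average, were the lowest by that of cardiac muscle, and its part in the endothelial values was not tested.

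**Figure D3:**
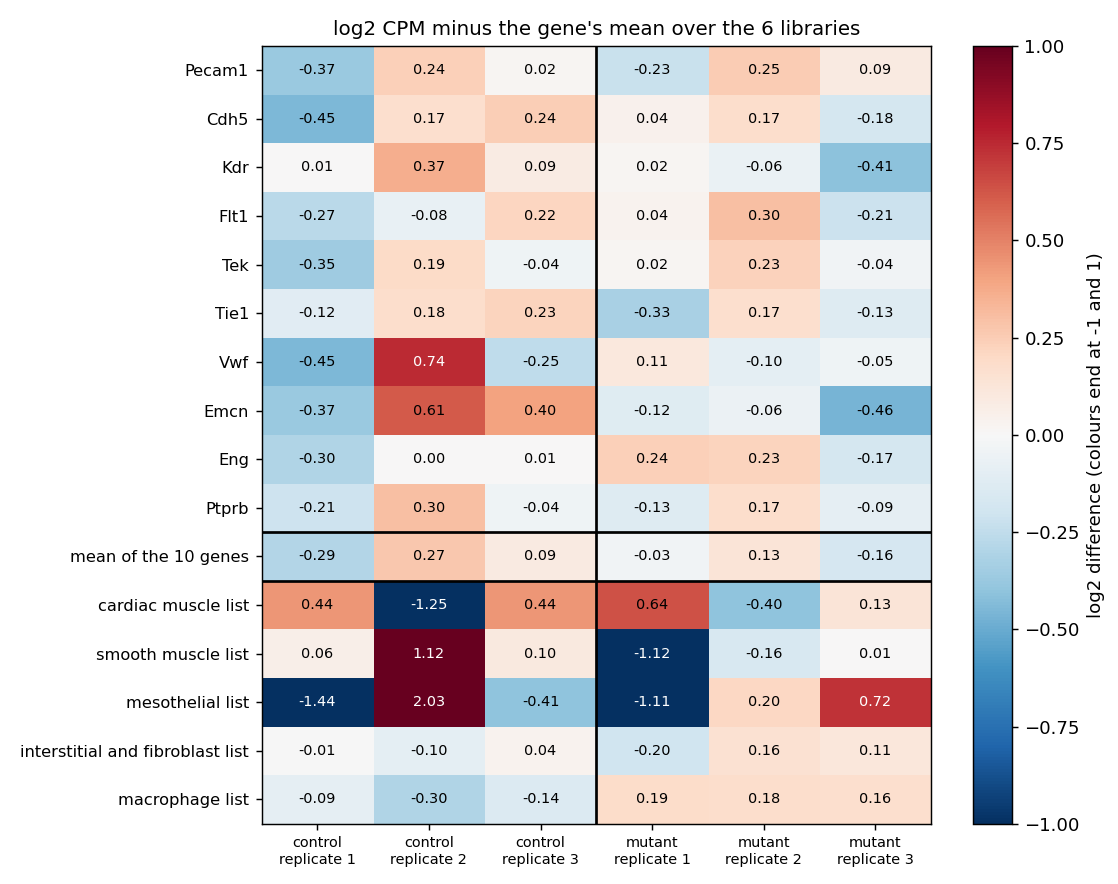
Log2 CPM of each gene minus its mean over the 6 libraries (rows; 1 column per library), with the mean of the 10 genes and of 5 lists of markers of other cell types beneath. Control replicate 1 is below the mean for 9 of the 10 genes, Kdr being the exception at 0.01; colours end at -1 and 1, which the cardiac muscle, smooth muscle and mesothelial lists pass in some libraries.

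Likeness to the common pattern was measured as the root mean square (RMS) distance, over the 6 libraries, between a gene's centred log2 CPM and the average of the other members. Ptprb (0.0906), Tek (0.107) and Cdh5 (0.120) followed the others most closely, and Emcn (0.269) and Vwf (0.305) least. Of 9921 genes outside the lists with a mean of 10 CPM or more, those near the average of the 10 included Pear1 (0.0275), 1110034B05Rik (0.0427), Rin3 (0.0486) and 2010011I20Rik (0.0511), beside a median distance of 0.243. These distances are a description over 6 libraries and carry no test.

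To set the members against one another apart from how much endothelial RNA a library held, each gene's log2 CPM was compared with the mean of the other 9 in the same library, a measure added after the values were seen. Tek exceeded the others by 0.14, 0.12 and 0.07 in the controls and by 0.27, 0.32 and 0.35 in the mutants, a difference of 0.20. Its groups did not overlap, and the difference ran from 0.18 to 0.23 when each library was left out. For Eng the values were 2.06, 1.77 and 1.98 in the controls and 2.38, 2.18 and 2.06 in the mutants (difference 0.27, range 0.18 to 0.34). The lowest mutant and the highest control met at 2.06, with the mutant ahead by less than this precision shows. Emcn stood at -0.95, -0.48 and -0.50 in the controls and at -0.95, -1.06 and -1.18 in the mutants, and here too the nearest libraries met, at -0.95 (difference -0.42, range -0.57 to -0.34). Kdr had a difference of -0.29 with overlapping groups. Among all genes tested, 2.16% lay apart from the members' average in the direction higher in mutants and 2.18% in the direction lower. The members' values constrain one another, since a gene that stands high lowers the others, and no test was made of them.

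**Figure D4:**
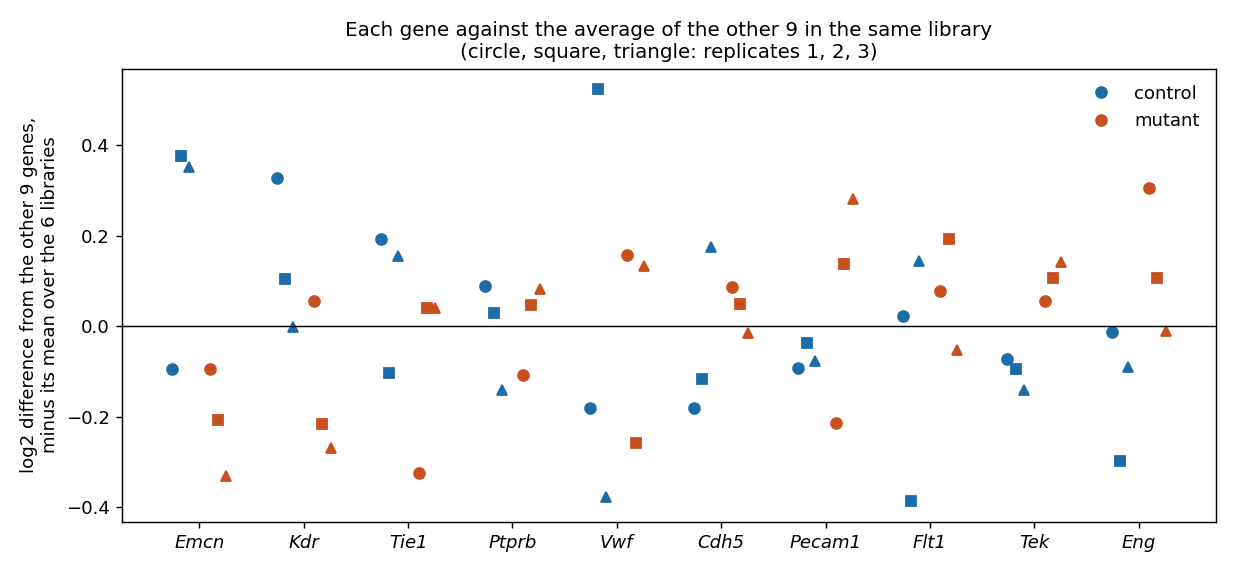
Each gene's log2 CPM minus the mean of the other 9 in the same library, centred on its own mean over the 6 libraries (vertical axis), in controls (blue) and mutants (orange), with genes ordered by the difference. Tek is the gene whose groups are clearly apart; Eng at the right and Emcn at the left meet at the edge.

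Transcription factors and other genes of the endothelium were read from lists that go beyond the 10. Erg (0.04, SE 0.23) and Fli1 (-0.12, SE 0.12, -0.02 without mutant replicate 3), ETS factors that maintain endothelial identity, and Sox18 (-0.13, SE 0.17) overlapped between the genotypes. Nfatc1, the endocardial factor whose locus carries the Cre cassette, was at 135, 161 and 116 CPM in the controls and at 176, 173 and 133 CPM in the mutants (0.23, SE 0.17, 0.11 when control replicate 3 was dropped and 0.36 when control replicate 2 was). Mef2c was lower in every mutant, at 71.1, 68.5 and 71.0 CPM against 81.0, 101 and 79.8 CPM (-0.32, SE 0.12, -0.19 without control replicate 2), whereas Klf2 (0.32, SE 0.15) and Lyl1 (0.18, SE 0.20) were higher in every mutant. Of the 16 transcription factors, 2 were thus higher in every mutant, beside 4.04% of all genes, and 1 was lower, beside 4.83%. In this list 7 fitted changes were above 0 and 9 below, with a median of -0.03, and edgeR called 0. Egfl7 (-0.15, SE 0.15, -0.05 without mutant replicate 3) and Nos3, the endothelial nitric oxide synthase (0.11, SE 0.22), overlapped. Sele, which encodes the E-selectin that activated endothelium shows to leukocytes, was at 18.9, 14.5 and 12.7 CPM in the controls and at 32.2, 32.7 and 21.2 CPM in the mutants. Every mutant exceeded every control (0.90, SE 0.22, unadjusted p = 0.00489 and adjusted p = 0.999 in edgeR, adjusted p = 0.113 in DESeq2). In the same list of 21 surface and signalling genes, Ramp2 (0.30, SE 0.13) was also higher and Robo4 (-0.55, SE 0.17) and Mmrn2 (-0.36, SE 0.12) lower in every mutant. Thus 2 of the 21 were higher in every mutant, beside 4.04% of all genes, and 2 were lower, beside 4.83%. The list had 8 fitted changes above 0 and 13 below, a median of -0.14 and 0 genes called by edgeR. Gja4, which encodes an arterial connexin, was lower in every mutant, at 108, 103 and 80.6 CPM against 114, 139 and 126 CPM (-0.38, SE 0.14, adjusted p = 0.999 in edgeR). Of the 7 arterial genes tested, edgeR called 0. Their fitted changes were above 0 in 3 and below 0 in 4, with a median of -0.03. Every mutant was lower for 2 of the 7, beside 4.83% of all genes.

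Over all 11 companion lists, 108 genes were found and 106 tested. Both edgeR and DESeq2 called 0 of the 106. At an unadjusted p under 0.05 edgeR had 14 of them, 2 higher and 12 lower in mutants, or 13.2% beside 3.45% of all genes. Groups lay apart with every mutant lower for 12 genes (11.3%, beside 4.83% of all genes) and with every mutant higher for 6 (5.66%, beside 4.04%). Their median log2 fold change was -0.06, with 43 fitted changes above 0 and 63 below. Several of these genes are also read in other cells, and the smooth muscle sum of mutant replicates 1 and 2 was below that of every control, but the part of other cells in these values was not tested.

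**Figure D5:**
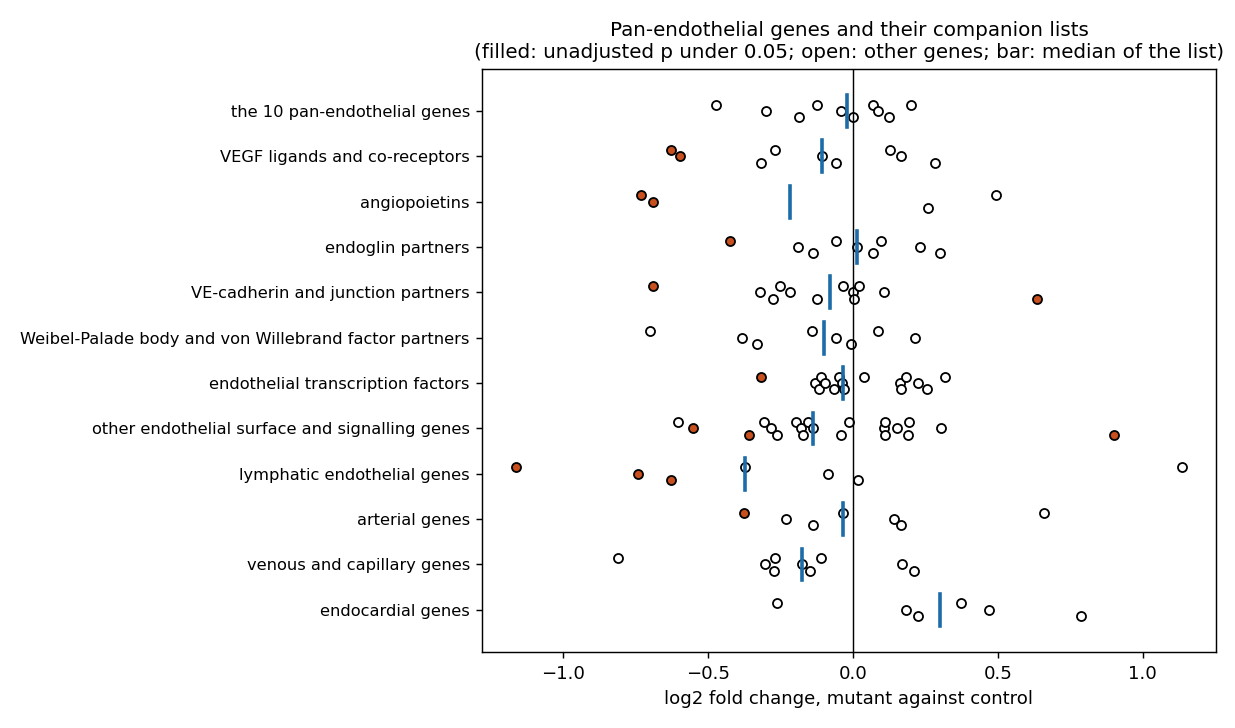
Log2 fold change, mutants against controls (horizontal axis), of the 10 pan-endothelial genes and of each gene tested in the 11 companion lists (rows), filled where the unadjusted p in edgeR was under 0.05, with the median of each row as a blue bar. The 10 genes lie between -0.47 and 0.20 with none filled, while 14 companion genes are filled, 12 of them to the left of 0.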

How the data were processed

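Aortic valve RNA was sequenced on an Illumina HiSeq from libraries made with the TruSeq RNA kit. Per the submitters' processing notes, reads were checked with FastQC and aligned to mm10 with TopHat2 2.0.13 and Bowtie2 2.2.1. The authors deposited estimated counts, the fragments that Cuffdiff 2.1.1 assigned to each gene symbol in each library, not normalized. Between 1.66% and 1.87% of these values were not whole and were rounded. The table held 0 columns of other samples and 0 unnamed genes. Replicates of a group differed by more than sampling noise (chi-square of 94.2 or more per degree of freedom), and none was merged. Of the symbols, 22648 (98.0%) matched GENCODE M21. Totals were 46180667 to 55728852 fragments in controls and 32218345 to 53129462 in mutants, which limits the precision of low genes.

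Genes were kept where 3 or more libraries held a count of 10 or more each. They were fitted in edgeR 4.0.16 (R 4.3.3) with TMM scaling and no covariate. The genotypes were compared by the quasi-likelihood F test, with Benjamini-Hochberg adjustment over all 15354 genes (threshold 0.05). The biological coefficient of variation was 0.278. CPM values use the TMM-scaled totals, and log2 CPM a prior count of 2. Intervals are 95% intervals of the fitted log2 fold change. The scripts were tested on simulated data with known changes. The authors' Cuffdiff comparison works on reads and was not run. Alternatives were DESeq2 1.42.0, other scalings and filters, limma-voom (limma 3.58.1) with and without sample weights, the replicate number as a block, longest-transcript lengths, and leaving out each library.

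The members, the companion and marker lists and the genes named (fixed partners, the gene with the smallest unadjusted p in each companion list among those with groups apart, and the 5 genes most like the members, not all of which are reported here) were chosen with earlier results of these data known. Ctnnb1 is among the fixed partners, and Ocln, Jam2, Lyz2, Klf2, Lyl1, Ramp2, Robo4, Mmrn2, Nrp2, Id1, Id3 and Pf4 were named after their values were seen. Genes were matched by symbol, older symbols through RefSeq synonyms.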

Additional observations from a re-analysis of the deposited data

How the results depend on the processing

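No member passed an adjusted p of 0.05 under any alternative tried, the smallest being 0.901, and no named companion gene did, the smallest being 0.113. Over all genes the count of calls was 0 in edgeR, 26 in DESeq2 and 529 at an unadjusted p under 0.05, and it was 0 in every refit that left out 1 library. Of the companion genes, 14 passed the unadjusted threshold. The median of the members ran from -0.17 to 0.10 over the refits that left out 1 library and from -0.03 to 0.03 under the other settings. In 6 of the 10 members the sign turned under at least 1 of 15 alternatives. Scaling by library totals alone turned Cdh5 (-0.0046). Sample weights in limma-voom turned Vwf (0.17), Ptprb (0.044) and Vegfb (-0.024). The cause was not tested. Leaving out 1 library turned the sign of the following genes, whose ranges were -0.081 to 0.22 (Pecam1), -0.19 to 0.13 (Cdh5), -0.052 to 0.23 (Flt1), -0.0046 to 0.27 (Tek), -0.34 to 0.34 (Vwf), -0.15 to 0.12 (Ptprb), -0.053 to 1.29 (Gdf2), -0.14 to 0.17 (Esam), -0.21 to 0.17 (Erg), -0.12 to 0.24 (Nos3), -0.060 to 0.37 (Vegfa), -0.15 to 0.40 (Vegfb), -0.33 to 0.0052 (Ctnnd1), -0.25 to 0.0081 (Sox18), -0.045 to 0.60 (Angpt1) and -0.31 to 0.10 (Selp). The labels give both genotypes replicate numbers 1 to 3. Deviations from the group means correlated at 0.289, 0.0822 and 0.0313 between same-numbered libraries. Between differently numbered libraries the correlations ran from -0.271 to 0.200. These values are too few to decide whether the numbers mark pairs, and the main fit did not read them as pairs. With the replicate number as a block, edgeR called 0 genes, 0 members and 0 companion genes, the median of the members was 0.0024, and Esam turned (-0.00096). Every member held 2514 fragments or more in each library, so that the spread between 3 libraries per genotype set its precision. Bmp10 and Adamts13 held too few fragments to be tested.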

Other observations

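Of 7 lymphatic endothelial genes, Mmrn1, a multimerin that lymphatic vessels share with platelets, was at 143, 307 and 164 CPM in the controls and at 85.0, 128 and 61.5 CPM in the mutants. Every mutant lay below every control (log2 fold change -1.16, SE 0.37, -0.74 without control replicate 2). In edgeR its unadjusted p was 0.0155 and its adjusted p 0.999. Reln was also lower in every mutant, at 8.59, 5.46 and 7.44 CPM against 10.1, 15.2 and 10.6 CPM (-0.74, SE 0.24), as were 4.83% of all genes. Prox1, the factor that sets lymphatic identity, overlapped between the genotypes (0.02, SE 0.29), and so did Lyve1 (-0.09, SE 0.23) and Pdpn (-0.37, SE 0.28). Ccl21a, a chemokine of lymphatic vessels, had the highest fitted change of the list (1.14, SE 1.18) with overlapping groups, at 9.14, 10.96 and 0.0217 CPM in the controls and at 23.0, 8.68 and 12.6 CPM in the mutants, and its near-identical copies make its counts uncertain. The list had 2 fitted changes above 0 and 5 below, a median of -0.37, and 0 genes called by edgeR. Prox1 is also read in cardiac muscle, and the part of other cells in these values was not tested.

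Of 6 endocardial genes, 5 had a fitted change above 0, with a median of 0.30, 0 groups apart, 0 genes called by edgeR and 0 with an unadjusted p under 0.05. Npr3, a natriuretic peptide clearance receptor, was at 13.3, 35.2 and 19.4 CPM in the controls and at 38.8, 29.8 and 48.7 CPM in the mutants (0.79, SE 0.36), and control replicate 2 lay among the mutants. Hapln1, a matrix link protein of the valves, had a log2 fold change of 0.47 (SE 0.22) and Gata4, a cardiac transcription factor, one of 0.37 (SE 0.18). Cytl1, the gene of the list with the highest CPM, was the exception in sign (-0.26, SE 0.15). Reln, Ccl21a, Prox1, Lyve1, Pdpn, Npr3, Hapln1, Gata4 and Cytl1 were named after their values were seen.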
